A study of Mus musculus with 20 samples.

Results

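The Dlg, Shank and Homer genes, which encode the layered scaffold proteins of the excitatory postsynaptic density, were followed on 20 one-colour Agilent arrays of mouse brain RNA. A probe belonged to the set when the RefSeq accession in the scanner files, without its version, was that of Dlg1, Dlg2, Dlg3, Dlg4, Shank1, Shank2, Shank3, Homer1, Homer2 or Homer3. These 10 genes had 20 of the 55681 probes of the array (6 for Dlg, 6 for Shank and 8 for Homer), and all 20 were among the 31516 probes bright enough to be tested (a mean of at least 6 log2 units in at least 1 group).

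All mice were C57BL/6J males, said in the labels to be 6 to 7 weeks old, and all carried a Tet-binding protein under the GFAP promoter, which is active in astrocytes. Tat+ mice carried in addition a TRE promoter-Tat transgene, so that the HIV-1 protein Tat was made mainly by astrocytes once doxycycline was given. Every mouse, Tat− mice included, received doxycycline at 100 mg/kg for 7 days, and over 7 days either methamphetamine (Meth) at 2 mg/kg or 0.9% saline (Sal). By transgene and treatment the mice formed 4 groups of 5, written Tat−/Sal or Tat−/Meth without and Tat+/Sal or Tat+/Meth with the Tat transgene, and the study asked how Meth sensitization and Tat act on transcription alone and together. The labels name the left hemisphere of the brain and harvest 24 h after the last injection, whereas the methods name the caudate putamen, older mice, a period of abstinence and a Meth challenge given to all groups, saline-treated mice included. The probes of all 12 striatal medium spiny neuron markers, among them Ppp1r1b, Drd1, Adora2a and Penk, were marked well above background by the scanner software on all 20 arrays, against 3 of 8 markers of cortical and hippocampal excitatory neurons. The labels name Cy3 and the methods Cy5, and the Tat transgene itself was not checked on the arrays.

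The excitatory postsynaptic density is built in tiers below the membrane. The Dlg proteins are membrane-associated guanylate kinases (MAGUKs) whose PDZ domains hold NMDA receptors, AMPA receptor auxiliary subunits and potassium channels, the Shank proteins form the deeper platform that is tied to them through Dlgap proteins, and the Homer proteins bind Shank, group I metabotropic glutamate receptors and inositol trisphosphate receptors. Long Homer proteins form multimers through a coiled coil, while the short form Homer1a, induced by neuronal activity, lacks it and competes with the long forms.

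All 5 Tat−/Meth arrays, and no others, lay on slide 1. In every comparison with this group, slide and the factor compared (Meth, Tat or their interaction) cannot be told apart. Slide 2 held the 5 Tat−/Sal arrays with 3 Tat+/Meth arrays, and slide 3 the 5 Tat+/Sal arrays with the other 2. Before scaling, the 75th percentile of an array, in log2 units, lay between 9.64 and 9.79 on slide 1 and between 9.75 and 10.33 elsewhere, and the arrays were brought to a common percentile. Tat−/Meth replicate 5 stood apart, with a correlation down to 0.945 with its group and 70.9% of all probes well above background. After scaling, the median over all tested probes was 0.10 log2 units higher in Tat−/Meth than in Tat−/Sal. Without scaling it was 0.33 lower (−0.33), and with median scaling 0.22 higher, so a member is also described by which side of that median it lay on. Microglial markers summed to 16.74 to 16.89 log2 units on the Tat−/Meth arrays against 17.38 to 17.76 in the other groups, general neuronal markers to 17.73 to 17.91 against 17.98 to 18.30, and astrocyte markers to 16.58 to 16.84 against 16.30 to 16.58, each list with every marker well above background on all arrays. Each sum is of unlogged intensities, so its brightest markers weigh most. In Tat−/Meth against Tat−/Sal, 2 of 6 microglial, 2 of 5 general neuronal and 3 of 6 astrocyte markers had an adjusted p under 0.05. Of all probes 50.3% did, so the sums do not show that a list shifted as a whole. The part of these shifts in the results was not tested, and in whole tissue fewer cells of a type and less RNA per cell cannot be told apart.

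The letters upstream of 3 of the genes are shown. The probes of Homer1 parted from each other, and Homer3 and Shank3 were among the 9 genes with a called probe in Tat−/Meth against Tat−/Sal. Windows from 250 bases before to 50 after a RefSeq start (GRCm38.p6) were given for 8 of the 10 genes, 18 windows in all, and none was given for Shank1 and Shank2. Capitals mark TGACG (the core of a cyclic AMP response element), GGGCGG (a GC box) or GCGGGGGCG (an Egr site, which here overlaps a GC box) on either strand.
Homer1, chr13:93303507-93303806, plus strand: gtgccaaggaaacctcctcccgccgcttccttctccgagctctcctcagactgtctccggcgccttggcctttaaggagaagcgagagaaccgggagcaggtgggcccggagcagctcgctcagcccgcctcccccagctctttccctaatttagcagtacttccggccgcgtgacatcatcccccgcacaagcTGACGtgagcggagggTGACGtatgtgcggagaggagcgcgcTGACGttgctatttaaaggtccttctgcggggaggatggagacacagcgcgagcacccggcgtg
Homer1, second start, chr13:93307784-93308083, plus strand: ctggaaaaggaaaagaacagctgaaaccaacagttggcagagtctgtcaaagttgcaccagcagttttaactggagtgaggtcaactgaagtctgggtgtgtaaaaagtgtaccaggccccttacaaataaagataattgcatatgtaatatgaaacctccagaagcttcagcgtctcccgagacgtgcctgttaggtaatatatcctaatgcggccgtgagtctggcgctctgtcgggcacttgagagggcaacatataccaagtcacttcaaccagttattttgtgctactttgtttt
Shank3, chr15:89499358-89499657, plus strand: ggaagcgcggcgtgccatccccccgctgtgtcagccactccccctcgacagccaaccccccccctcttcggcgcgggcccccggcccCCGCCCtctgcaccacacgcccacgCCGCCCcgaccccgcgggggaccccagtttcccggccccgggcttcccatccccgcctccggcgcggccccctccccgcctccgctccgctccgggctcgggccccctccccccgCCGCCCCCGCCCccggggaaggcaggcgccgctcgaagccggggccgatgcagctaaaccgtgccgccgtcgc
Homer3, chr8:70282749-70283048, plus strand: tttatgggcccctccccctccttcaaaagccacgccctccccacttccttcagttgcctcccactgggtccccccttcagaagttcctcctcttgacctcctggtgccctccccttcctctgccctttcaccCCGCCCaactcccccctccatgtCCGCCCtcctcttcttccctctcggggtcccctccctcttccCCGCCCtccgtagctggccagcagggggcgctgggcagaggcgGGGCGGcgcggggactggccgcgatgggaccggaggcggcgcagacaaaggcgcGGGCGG
The first Homer1 window held TGACG 3 times, a motif present in 20.8% of all 32851 windows, and the second Homer1 window held none of the 3 motifs. The Shank3 window held GGGCGG 4 times and GCGGGGGCG 1 time, and the Homer3 window held GGGCGG 5 times, against shares of 35.7% for GGGCGG and 2.91% for GCGGGGGCG among all windows. Among the other member windows, GGGCGG occurred 8 times in one Homer2 window. The shares count windows with a match, not copies. Counted in that way over the 18 member windows, TGACG was in 3, GGGCGG in 7 and GCGGGGGCG in 1. An AP-1 site (TGAGTCA) was in 0 and a TATA box (TATAAA) in 3, against 5.2% and 13.6% of all windows. Both strands were searched, and a match describes the letters only.

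**Figure D1:**
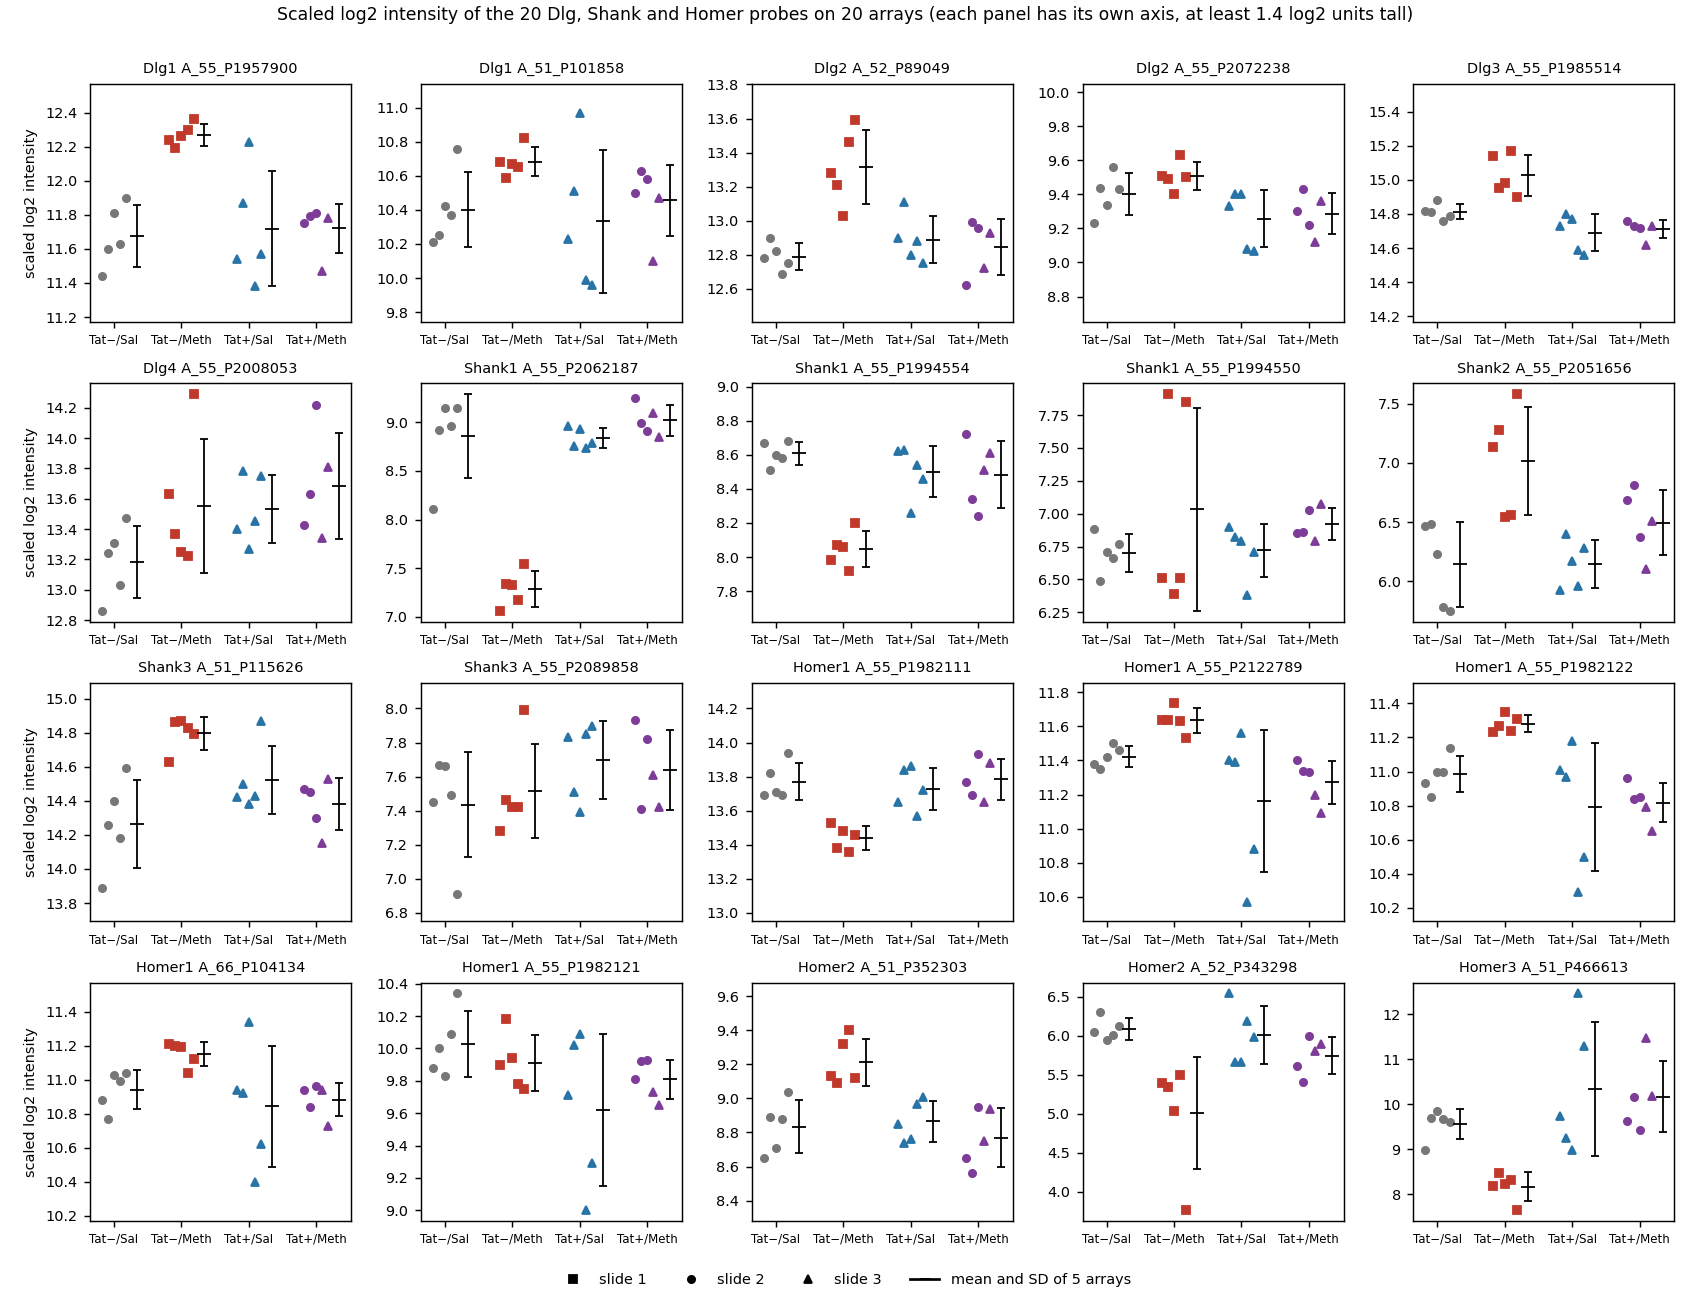
Scaled log2 intensity (y axis of each panel) of each of the 20 probes on the 20 arrays, by group along the x axis, with marker shape for the slide and a bar for the mean and SD of 5 arrays. The Tat−/Meth arrays, all on slide 1, lay below every Tat−/Sal array for Shank1 A_55_P2062187 and A_55_P1994554, for Homer1 A_55_P1982111, for Homer2 A_52_P343298 and for Homer3, and above every Tat−/Sal array for 9 other probes.

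In Tat−/Meth against Tat−/Sal, limma called 11 of the 20 member probes at a Benjamini–Hochberg adjusted p under 0.05, 6 higher and 5 lower, from 9 of the 10 genes. Among all 31516 tested probes 50.3% were called (28.1% higher and 22.2% lower), so the members' share was close to that of the array. The 2 groups did not overlap for 14 member probes, against 36.6% of all probes. The median member difference was 0.22 log2 units and that of all probes 0.10, with 13 members above the latter and 7 below it. Past 2-fold were 3 member probes, for Shank1, Homer2 and Homer3, all lower, against 11.6% of all probes. The Homer2 probe among them was tested only because its saline groups reached the signal limit, which favoured a fall. In the order of their roles, the brightest probes of Dlg1, Dlg2 and Dlg3 rose and that of Dlg4 was not called, those of Shank2 and Shank3 rose while that of Shank1 fell, and that of Homer2 rose while those of Homer1 and Homer3 fell.

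Dlg1 (SAP97, a scaffold that carries AMPA receptor subunits to the membrane) was read by 2 probes. The brighter, A_55_P1957900, gave scaled log2 intensities, here and below in the order of replicates 1 to 5, of 11.44, 11.60, 11.81, 11.63 and 11.90 on the Tat−/Sal arrays and 12.24, 12.19, 12.26, 12.30 and 12.36 on the Tat−/Meth arrays. It gave 11.54, 11.87, 12.23, 11.38 and 11.57 on the Tat+/Sal arrays and 11.75, 11.79, 11.81, 11.47 and 11.78 on the Tat+/Meth arrays. Every Tat−/Meth array was above every Tat−/Sal array, and of the Tat+ arrays only Tat+/Sal replicate 3 reached the Tat−/Meth range. The difference was 0.59 ± 0.13 log2 units (SE, n = 5 and 5, 1.51-fold, limma adjusted p = 0.000818). The dimmer Dlg1 probe differed in the same direction by 0.28 ± 0.16, with overlapping groups and an adjusted p of 0.151.

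Dlg2 (PSD-93) also had 2 probes, of which the brighter moved further. Probe A_52_P89049 gave 12.78, 12.90, 12.82, 12.69 and 12.75 on the Tat−/Sal arrays and 13.28, 13.21, 13.03, 13.46 and 13.59 on the Tat−/Meth arrays. It gave 12.90, 13.11, 12.80, 12.88 and 12.75 on the Tat+/Sal arrays and 12.62, 12.99, 12.96, 12.72 and 12.93 on the Tat+/Meth arrays. The lowest Tat−/Meth array was above the highest Tat−/Sal array, and of the Tat+ arrays only Tat+/Sal replicate 2 was above the lowest Tat−/Meth array. The rise in Tat−/Meth was 0.53 ± 0.10 (adjusted p = 0.000265). The other Dlg2 probe, A_55_P2072238, differed by 0.11 ± 0.08, at the median of all probes (adjusted p = 0.29), and by −0.31 without scaling.

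Dlg3 (SAP102, a carrier of NMDA receptors) rose little and evenly. Its probe gave 14.82, 14.81, 14.88, 14.76 and 14.79 on the Tat−/Sal arrays and 15.14, 14.95, 14.98, 15.17 and 14.90 on the Tat−/Meth arrays. It gave 14.73, 14.80, 14.77, 14.59 and 14.56 on the Tat+/Sal arrays and 14.76, 14.73, 14.72, 14.62 and 14.73 on the Tat+/Meth arrays. The 5 Tat−/Meth values exceeded all others, by a narrow margin over Tat−/Sal. The rise was 0.22 ± 0.06 (1.16-fold, adjusted p = 0.00797), or 0.12 above the median of all probes, and turned to −0.205 without scaling.

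Dlg4 (PSD-95, the most abundant of these scaffolds at excitatory synapses) did not pass the test in any comparison of scaled values (without scaling it was called higher, by 0.48, in Tat+/Meth than in Tat−/Meth). It ranged from 12.86 to 13.47 in Tat−/Sal, from 13.22 to 14.29 in Tat−/Meth, from 13.27 to 13.78 in Tat+/Sal and from 13.34 to 14.22 in Tat+/Meth, with medians of 13.24, 13.37, 13.45 and 13.63. The groups overlapped throughout, and the spread within Tat−/Meth (SD 0.44) was larger than the difference from Tat−/Sal of 0.37 ± 0.20 (adjusted p = 0.127).

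Shank1, a scaffold of mature spines, gave the fall with the smallest adjusted p of the family in Tat−/Meth. Its brightest probe, A_55_P2062187, gave 8.11, 8.92, 9.15, 8.96 and 9.15 on the Tat−/Sal arrays and 7.06, 7.34, 7.33, 7.17 and 7.54 on the Tat−/Meth arrays. It gave 8.96, 8.76, 8.93, 8.74 and 8.79 on the Tat+/Sal arrays and 9.25, 8.99, 8.91, 9.10 and 8.85 on the Tat+/Meth arrays. All Tat−/Meth arrays were below all 15 others, and Tat−/Sal replicate 1 was lower than the rest of its group. The fall was 1.57 ± 0.16 log2 units (2.97-fold, adjusted p = 1.57e-07). Probe A_55_P1994554 fell by 0.56 ± 0.09 (adjusted p = 4.62e-05), from 8.51 to 8.68 in Tat−/Sal down to 7.92 to 8.20 in Tat−/Meth, again without overlap. The third Shank1 probe, A_55_P1994550, went the other way on 2 Tat−/Meth arrays only: it read 7.91 and 7.85 on replicates 2 and 5 and 6.39 to 6.51 on the other 3, and the difference of 0.33 ± 0.25 had an adjusted p of 0.269.

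Shank2 was read by 1 dim probe and rose. It gave 6.47, 6.48, 6.23, 5.78 and 5.75 on the Tat−/Sal arrays and 7.13, 7.28, 6.54, 6.56 and 7.58 on the Tat−/Meth arrays. It gave 5.93, 6.40, 6.17, 5.96 and 6.28 on the Tat+/Sal arrays and 6.69, 6.81, 6.37, 6.10 and 6.51 on the Tat+/Meth arrays. All Tat−/Meth arrays were above Tat−/Sal, 2 of them by a narrow margin, and Tat+/Meth overlapped both. The rise was 0.88 ± 0.20 (1.84-fold, adjusted p = 0.00156).

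Shank3, the Shank gene known for its role in corticostriatal synapses and in autism, rose at its bright probe A_51_P115626. This probe had 8 to 10 usable spots on each array, whose SD was 0.018 to 0.057, so its values carry little spot error. It gave 13.89, 14.26, 14.40, 14.18 and 14.59 on the Tat−/Sal arrays and 14.63, 14.86, 14.87, 14.83 and 14.79 on the Tat−/Meth arrays. It gave 14.42, 14.50, 14.38, 14.43 and 14.87 on the Tat+/Sal arrays and 14.47, 14.45, 14.30, 14.15 and 14.53 on the Tat+/Meth arrays. Tat−/Meth was above Tat−/Sal on every array, and Tat+/Sal replicate 5 reached the Tat−/Meth range. The rise was 0.53 ± 0.12 (1.45-fold, adjusted p = 0.000958). The dim probe A_55_P2089858 ranged from 6.91 to 7.67 in Tat−/Sal and from 7.28 to 7.99 in Tat−/Meth and differed by 0.08 ± 0.16 (adjusted p = 0.687).

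Homer1 was read by 5 probes that did not move together. The brightest, A_55_P1982111, filed under NM_147176, gave 13.69, 13.82, 13.71, 13.69 and 13.94 on the Tat−/Sal arrays and 13.53, 13.38, 13.48, 13.36 and 13.46 on the Tat−/Meth arrays. It gave 13.65, 13.84, 13.86, 13.57 and 13.72 on the Tat+/Sal arrays and 13.77, 13.69, 13.93, 13.65 and 13.88 on the Tat+/Meth arrays. The Tat−/Meth arrays were the 5 lowest of the 20. The fall was 0.33 ± 0.07 (1.26-fold, adjusted p = 0.00105). The second probe filed under NM_147176, A_66_P104134, gave 10.88, 10.77, 11.03, 10.99 and 11.04 on the Tat−/Sal arrays and 11.21, 11.20, 11.19, 11.04 and 11.12 on the Tat−/Meth arrays. It gave 10.94, 10.92, 11.34, 10.40 and 10.62 on the Tat+/Sal arrays and 10.94, 10.84, 10.96, 10.94 and 10.73 on the Tat+/Meth arrays. Here Tat−/Meth lay at or above the top of Tat−/Sal, with a difference of 0.21 ± 0.12 that did not pass (adjusted p = 0.16). The SE pools the spread of all 4 groups, and the SD was 0.357 in Tat+/Sal against 0.115 in Tat−/Sal and 0.07 in Tat−/Meth.

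The other 3 Homer1 probes were filed under NM_011982. Which accession stands for the short and which for the long form is not given in the sources used here. Probe A_55_P2122789 gave 11.38, 11.35, 11.42, 11.50 and 11.46 on the Tat−/Sal arrays and 11.64, 11.64, 11.74, 11.63 and 11.53 on the Tat−/Meth arrays. It gave 11.40, 11.39, 11.56, 10.57 and 10.88 on the Tat+/Sal arrays and 11.40, 11.34, 11.33, 11.20 and 11.09 on the Tat+/Meth arrays. Tat−/Meth was above Tat−/Sal without overlap, yet the difference of 0.22 ± 0.14 did not pass (adjusted p = 0.197). Its SE also holds the spread of Tat+/Sal, where 2 arrays lay far below all others. The SD was 0.416 in Tat+/Sal against 0.062 in Tat−/Sal and 0.072 in Tat−/Meth. Probe A_55_P1982122 gave 10.93, 10.85, 11, 11 and 11.14 on the Tat−/Sal arrays and 11.23, 11.27, 11.35, 11.24 and 11.31 on the Tat−/Meth arrays. It gave 11.01, 10.97, 11.18, 10.29 and 10.50 on the Tat+/Sal arrays and 10.96, 10.84, 10.85, 10.79 and 10.65 on the Tat+/Meth arrays. The pattern was that of the previous probe, with a difference of 0.30 ± 0.13 (adjusted p = 0.0598). This difference was called when Tat+/Sal replicate 3 or 4 was left out. Probe A_55_P1982121 gave 9.88, 10.00, 9.83, 10.09 and 10.34 on the Tat−/Sal arrays and 9.90, 10.18, 9.94, 9.78 and 9.75 on the Tat−/Meth arrays. It gave 9.71, 10.02, 10.09, 9.0 and 9.29 on the Tat+/Sal arrays and 9.81, 9.92, 9.93, 9.73 and 9.65 on the Tat+/Meth arrays. Its groups overlapped (difference −0.12 ± 0.17, adjusted p = 0.578), and the same 2 Tat+/Sal arrays were the lowest.

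Homer2, a long Homer with the same partners, had a bright probe that rose and a dim probe that fell. Probe A_51_P352303 gave 8.65, 8.89, 8.71, 8.88 and 9.04 on the Tat−/Sal arrays and 9.13, 9.09, 9.32, 9.40 and 9.12 on the Tat−/Meth arrays. It gave 8.85, 8.74, 8.76, 8.97 and 9.01 on the Tat+/Sal arrays and 8.65, 8.56, 8.95, 8.75 and 8.94 on the Tat+/Meth arrays. Every Tat−/Meth array was above all arrays of the other groups. The rise was 0.38 ± 0.10 (adjusted p = 0.00285) and was −0.04 without scaling. Probe A_52_P343298 lay near the background, being well above it on 2 of 5 Tat−/Meth arrays, on 5 of 5 Tat−/Sal arrays and on 4 of 5 arrays in each Tat+ group. It read 5.94 to 6.30 in Tat−/Sal and 3.76 to 5.50 in Tat−/Meth, the lowest on replicate 5, and fell by 1.08 ± 0.26 (adjusted p = 0.00187), a call that was lost with quantile normalization (−0.88, adjusted p = 0.0809) and under another background correction (normexp, −0.16, adjusted p = 0.127). With so few Tat−/Meth arrays above background, the size of this fall is uncertain. The probe reached the limit of 6 log2 units only through Tat−/Sal (mean 6.08) and Tat+/Sal (6.00). The limit thus favoured a fall, and this call is no separate support.

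Homer3, the Homer best known from cerebellar Purkinje cells, was the least even member. Its probe gave 8.97, 9.69, 9.85, 9.66 and 9.60 on the Tat−/Sal arrays and 8.17, 8.47, 8.23, 8.32 and 7.64 on the Tat−/Meth arrays. It gave 9.73, 9.24, 8.97, 12.46 and 11.28 on the Tat+/Sal arrays and 9.63, 10.15, 9.42, 11.46 and 10.18 on the Tat+/Meth arrays. All Tat−/Meth arrays were below all others, and 3 Tat+ arrays, all on slide 3, were above 11. The fall in Tat−/Meth was 1.39 ± 0.52 (2.62-fold, adjusted p = 0.0335). This call was lost in 7 of 20 fits that each left out a single array, namely Tat−/Meth replicate 1, 3 or 5 or Tat−/Sal replicate 2, 3, 4 or 5 (adjusted p up to 0.0678). It was also lost under median scaling, normexp, the series matrix values and no filter on dim probes (differences of −1.39 to −1.105).

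The calls depended on the scaling. Without scaling Dlg1 A_55_P1957900 differed by 0.17, Dlg2 A_52_P89049 by 0.10, Shank2 by 0.46 and Shank3 A_51_P115626 by 0.11 between Tat−/Meth and Tat−/Sal, and none of these was called, while the 5 falls were called, as were Homer1 A_55_P1982121 (−0.54) and Dlg2 A_55_P2072238 (−0.31). Among all probes 50.4% were called without scaling, 97.8% of them lower, so the lack of rises there was common to the array. In this comparison 10 of the 20 members had the opposite sign without scaling, all of them higher with it: 2 of the called probes (Dlg3 and Homer2 A_51_P352303), the dimmer Dlg1 and Dlg2 probes, Dlg4, Shank1 A_55_P1994550, Shank3 A_55_P2089858 and Homer1 A_55_P2122789, A_55_P1982122 and A_66_P104134. With median scaling the calls of Dlg3 (0.34), Homer1 A_55_P1982111 (−0.21) and Homer3 (−1.27) were lost, and with quantile normalization that of Homer2 A_52_P343298. Scaling to the 75th percentile, median scaling and no scaling differ by a constant per array. They could therefore hardly move a member relative to the median of all probes. Quantile normalization could, and 19 of the 20 members kept their side under it, the exception being Shank3 A_55_P2089858, which lay at that median. Under normexp, where 55669 probes were tested, 9 members lay above the median of all probes and 11 below it, against 13 and 7 in the main run.

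**Figure D2:**
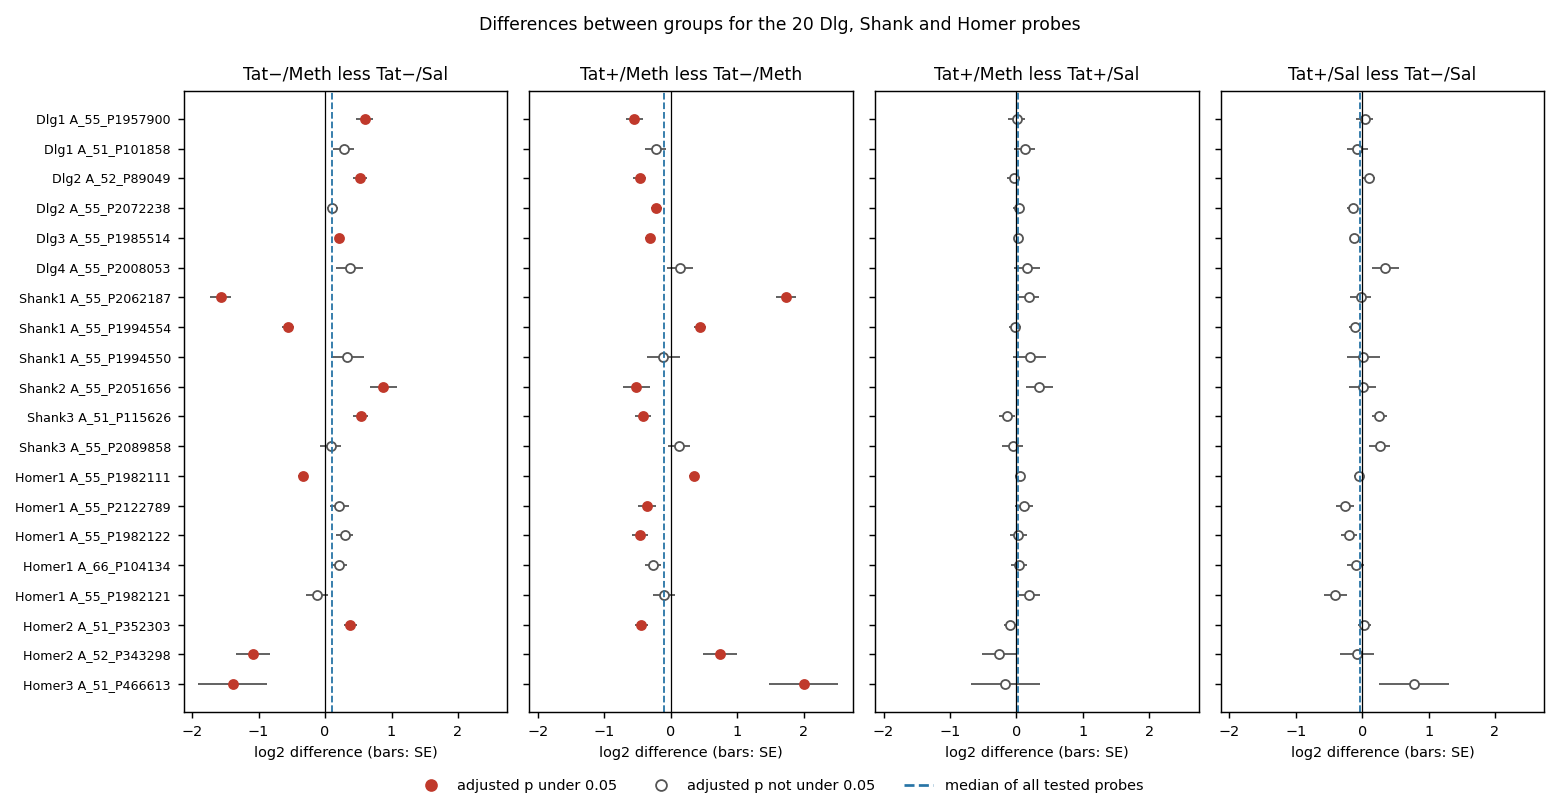
Log2 difference (x axis, bars for SE) of each of the 20 probes in 4 comparisons, filled where the adjusted p was under 0.05, with a dashed line at the median of all tested probes. Filled points occur only in both panels with Tat−/Meth arrays (11 and 14 probes), and those panels share the 5 Tat−/Meth arrays. Without scaling 10 of the 20 probes have the opposite sign in Tat−/Meth against Tat−/Sal, and 6 in Tat+/Meth against Tat−/Meth.

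The comparison of Tat+/Meth with Tat−/Meth, for Tat in Meth-treated mice, shares the 5 Tat−/Meth arrays with the previous one, and no slide held both groups. Here 14 of 20 member probes were called, 5 higher and 9 lower in Tat+/Meth, against 53.5% of all probes (23.2% higher and 30.3% lower). The groups did not overlap for 12 members and for 37.2% of all probes. Past 2-fold were Shank1 A_55_P2062187 and Homer3, against 12.0% of all probes. The median member difference was −0.22 and that of all probes −0.095. Without scaling 6 members were called, all higher in Tat+/Meth, against 42.9% of all probes, of which 12851 were higher and 692 lower, and 6 members had the opposite sign. With quantile normalization the calls of Homer1 A_55_P2122789 and Homer2 A_52_P343298 were lost, and with median scaling the calls of Shank1 A_55_P1994554, Homer1 A_55_P1982111, Dlg2 A_55_P2072238 and Homer2 A_52_P343298 were lost.

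Among the MAGUKs, Dlg1 A_55_P1957900 fell by 0.55 ± 0.13 in Tat+/Meth (adjusted p = 0.00141), Dlg2 A_52_P89049 fell by 0.47 ± 0.10 (0.000684 adjusted p) and Dlg3 fell by 0.32 ± 0.06 (adjusted p = 0.000323), the last being 0.02 higher without scaling. The fainter Dlg2 probe fell by 0.22 ± 0.08 (adjusted p = 0.0315), a call that was lost without Tat−/Meth replicate 1 or 4 or Tat+/Meth replicate 3 or 4 (adjusted p up to 0.0866), under median scaling, normexp, the series matrix values and no filter on dim probes (adjusted p of 0.0693 to 0.0872), and that turned to 0.12 without scaling. Dlg4 differed by 0.14 ± 0.20 (adjusted p = 0.576).

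Among the Shank genes, Shank1 A_55_P2062187 rose by 1.73 ± 0.16 (3.32-fold, adjusted p = 4.11e-08) and A_55_P1994554 by 0.44 ± 0.09 (adjusted p = 0.000505), in both cases with all 5 Tat+/Meth arrays above all Tat−/Meth arrays. Shank3 A_51_P115626 fell by 0.42 ± 0.12 (adjusted p = 0.00583), also without overlap. Shank2 fell by 0.52 ± 0.20 (adjusted p = 0.038), with overlap, and this call was lost when Tat−/Meth replicate 1, 2 or 5 or Tat+/Meth replicate 3, 4 or 5 was left out (adjusted p up to 0.108). It was also lost with no filter on dim probes (adjusted p = 0.0702), with only these 2 groups in the limma fit (adjusted p = 0.07), by the methods' t-test after adjustment (adjusted p = 0.105) and without scaling (−0.18).

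Among the Homer genes, Homer3 rose by 2.00 ± 0.52 log2 units (4.0-fold, adjusted p = 0.00345), from at most 8.47 to at least 9.42. Homer1 A_55_P1982111 rose by 0.34 ± 0.07 (adjusted p = 0.000696), while Homer1 A_55_P1982122 fell by 0.46 ± 0.13 (adjusted p = 0.00481) and A_55_P2122789 by 0.36 ± 0.14 (adjusted p = 0.0322). The call of A_55_P2122789 was lost when Tat−/Meth replicate 1, 2, 3 or 4 or Tat+/Meth replicate 4 or 5 was left out (adjusted p up to 0.0774). It was also lost with quantile normalization, normexp, the series matrix values and no filter on dim probes (limma adjusted p of 0.0513 to 0.065), and without scaling the difference was −0.025. Homer2 A_51_P352303 fell by 0.44 ± 0.10 (adjusted p = 0.00076), and the dim Homer2 probe rose by 0.74 ± 0.26 (adjusted p = 0.0212). The latter call was lost without Tat+/Meth replicate 3 (adjusted p = 0.0505), with quantile normalization (0.50) and with median scaling (0.58). It was also lost with only these 2 groups in the fit and by the methods' t-test, and the difference became −0.02 under normexp. Both group means of this dim probe, 5.00 in Tat−/Meth and 5.74 in Tat+/Meth, lay under the limit of 6 log2 units.

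Away from the Tat−/Meth arrays the scaffold genes showed no called difference. In Tat+/Meth against Tat+/Sal 0 of 20 members were called by limma, against 0.0% of all probes, with no member and 3624 of all probes at an unadjusted p under 0.05. The smallest adjusted p of a member was 0.53. In Tat+/Sal against Tat−/Sal 0 members were called against 0.708% of all probes, with 2 members and 5223 of all probes at an unadjusted p under 0.05. The smallest adjusted p of a member there was 0.233. In Tat+/Meth against Tat−/Sal 0 were called against 0.00317%, with 1 member and 1989 of all probes at an unadjusted p under 0.05, and a smallest adjusted p of 0.778. With slide as a fixed block, which could be fitted for these 3 comparisons, 0 members were called as well. Inside slide 2, Tat+/Meth minus Tat−/Sal was 0.58 for Dlg4 and at most 0.483 in size for the other members, and inside slide 3, Tat+/Meth minus Tat+/Sal was 0.485 for Homer3 and smaller in size for the others. Within Tat+/Meth itself, Homer3 was 1.09 higher on the 2 slide 3 arrays (10.18 and 11.46) than on the 3 slide 2 arrays (9.42 to 10.15).

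The difference made by Meth was then compared between Tat+ and Tat− mice with the interaction term, which again contains the Tat−/Meth slide. It was called for 7 of 20 member probes, 3 higher and 4 lower in Tat+ mice, against 37.0% of all probes (19% higher and 18.1% lower). Shank1 A_55_P2062187 (1.75 ± 0.22, adjusted p = 5.89e-06), Shank1 A_55_P1994554 (0.54 ± 0.13, adjusted p = 0.00248) and Homer1 A_55_P1982111 (0.39 ± 0.10, adjusted p = 0.00662) were higher. Shank3 A_51_P115626 (−0.67 ± 0.17, adjusted p = 0.00351), Dlg1 A_55_P1957900 (−0.59 ± 0.18, adjusted p = 0.0152), Dlg2 A_52_P89049 (−0.57 ± 0.14, adjusted p = 0.00386) and Homer2 A_51_P352303 (−0.48 ± 0.13, adjusted p = 0.00941) were lower, the last at 0.01 without scaling. These 4 were not called without scaling, and with median scaling the calls of Shank1 A_55_P1994554, Homer1 A_55_P1982111 and Homer2 A_51_P352303 were lost. Of these, Shank1 A_55_P2062187 alone was past 2-fold, against 12.4% of all probes. Homer3, with 1.22 ± 0.74, did not pass (adjusted p = 0.209).

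The probes of a single gene were set against each other within each array, a difference that scaling by a constant cannot change. This comparison was chosen after the values were seen. There were 17 pairs of probes, compared between groups in 85 exact two-sided permutation tests with a smallest possible p of 0.00794 for 5 arrays against 5. After Benjamini–Hochberg adjustment over the 85 tests, 19 passed, each at an exact permutation p of 0.00794 and an adjusted p of 0.0355, with 9 of them in Tat−/Meth against Tat−/Sal, 9 in Tat+/Meth against Tat−/Meth and 1 in Tat+/Meth against Tat−/Sal. Pairs that share a probe reuse its values, so they are not separate results. How often probes of a single gene part over the whole array was not computed, so these counts have no array-wide share beside them.

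For Homer1, A_55_P1982111 fell relative to 3 of its 4 companions in Tat−/Meth. Less A_55_P1982122 it was 2.69 to 2.97 in Tat−/Sal and 2.11 to 2.31 in Tat−/Meth, a change of −0.62 (−0.625), with 2.81 to 3.23 in Tat+/Meth. Less A_55_P2122789 the change was −0.55 (−0.545) and less A_66_P104134, which is filed under the same accession, it was −0.54. Less A_55_P1982121 the change was −0.21 and did not pass (exact permutation p = 0.0635, adjusted p = 0.154). The 4 companions changed against each other by at most 0.41 in size, and none of their 6 pairs passed in Tat−/Meth against Tat−/Sal.

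For Shank1, A_55_P2062187 less A_55_P1994554 changed by −1.01 in Tat−/Meth, from −0.57 to 0.55 in Tat−/Sal down to −0.92 to −0.66. Less A_55_P1994550 it changed by −1.90. For Dlg1 the bright probe gained 0.31 on the dim one and for Dlg2 0.42, while for Shank3 a gain of 0.45 did not pass (exact permutation p = 0.143, adjusted p = 0.234). For Homer2 the bright probe gained 1.46 on the dim one, and 0.48 under normexp. The Homer2 pair was also the 1 that passed in Tat+/Meth against Tat−/Sal, with a change of 0.28, and 0.12 under normexp. No pair passed in Tat+/Meth against Tat+/Sal or in Tat+/Sal against Tat−/Sal. For these differences too, Tat−/Meth and slide 1 cannot be told apart.

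**Figure D3:**
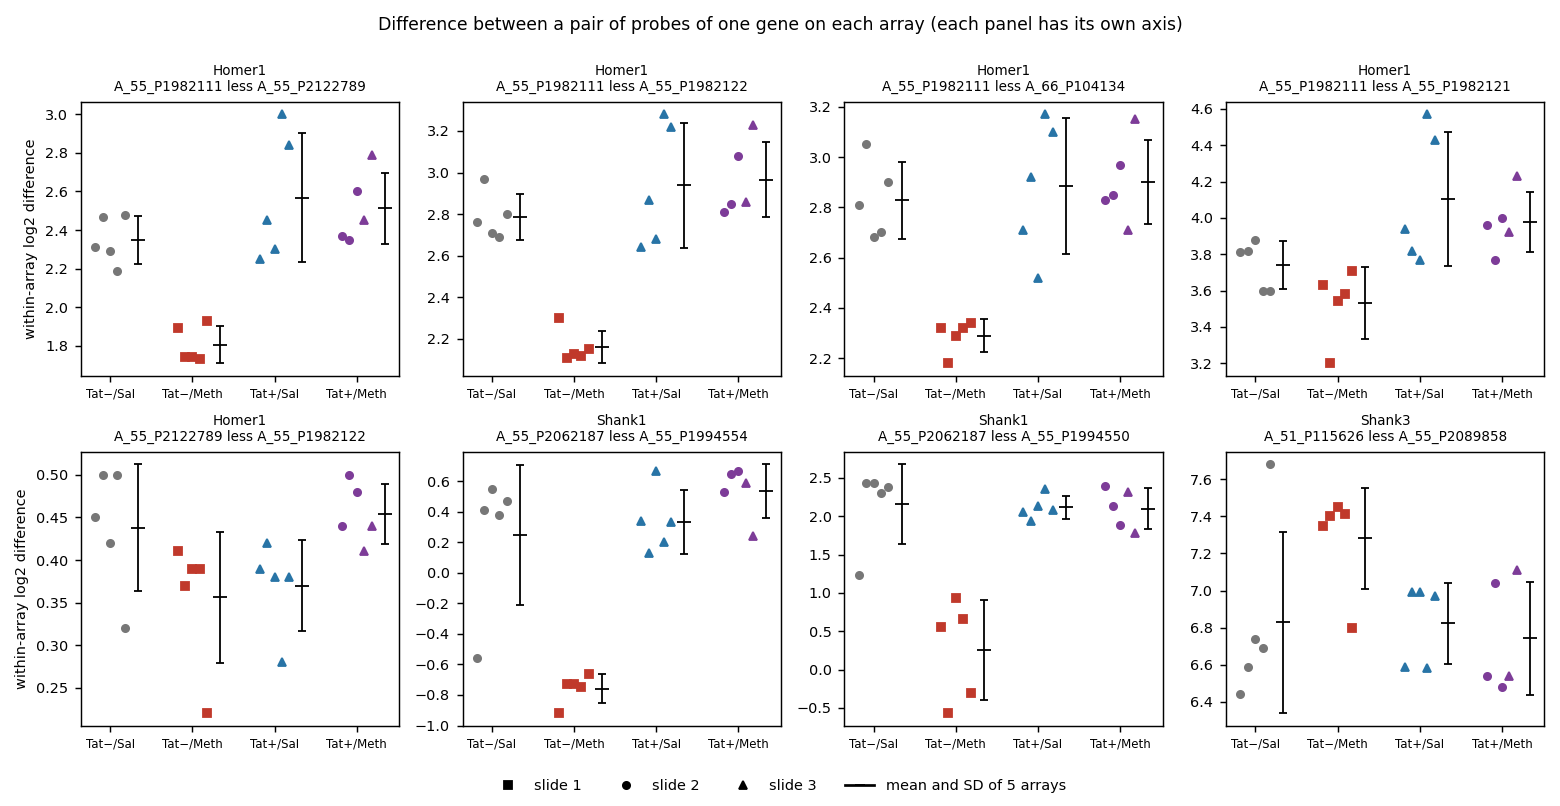
Within-array log2 difference (y axis of each panel) between 2 probes of a gene, by group along the x axis, with marker shape for the slide and a bar for the mean and SD of 5 arrays. In Tat−/Meth the first 3 Homer1 panels and both Shank1 panels lie below every array of the other groups, with Tat−/Sal replicate 1 the nearest in the Shank1 panels.

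Within groups, 4 of the 5 Homer1 probes varied together from array to array, and Homer3 ran against them. Over the 20 arrays, deviations from the group means of the 4 Homer1 probes other than A_55_P1982111 correlated with each other at r = 0.82 to 0.96, and with A_55_P1982111 at 0.38 to 0.55. The same 4 probes correlated with Homer3 at −0.83 to −0.70. Spearman's rank correlation for these 4 was −0.68 to −0.51, and without the 2 arrays farthest from the median of Homer1, Tat+/Sal replicates 3 and 4 for each probe, r was −0.60 to −0.30 over 18 arrays. The Homer2 probes correlated with the 5 Homer1 probes at −0.36 to 0.27 and with Homer3 at 0.33 and 0.28. The values are a description of arrays that share slides, and Homer3 read highest on Tat+/Sal replicates 4 and 5 (12.46 and 11.28) and Tat+/Meth replicate 4 (11.46). On Tat+/Sal replicates 4 and 5 the 4 Homer1 probes were lower than on every other array of that group. Both Dlg1 probes went with Homer1 in the same way (r = 0.64 to 0.76) and against Homer3 (−0.66 and −0.72). Dlg2 A_55_P2072238 and Dlg3 did likewise, at 0.42 to 0.61 and 0.39 to 0.56 with the 4 Homer1 probes and −0.56 and −0.55 with Homer3. Dlg2 A_52_P89049 and Dlg4 ran less against Homer3 (−0.25 and −0.17). The Dlg values were not recomputed without Tat+/Sal replicates 3 and 4.

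**Figure D4:**
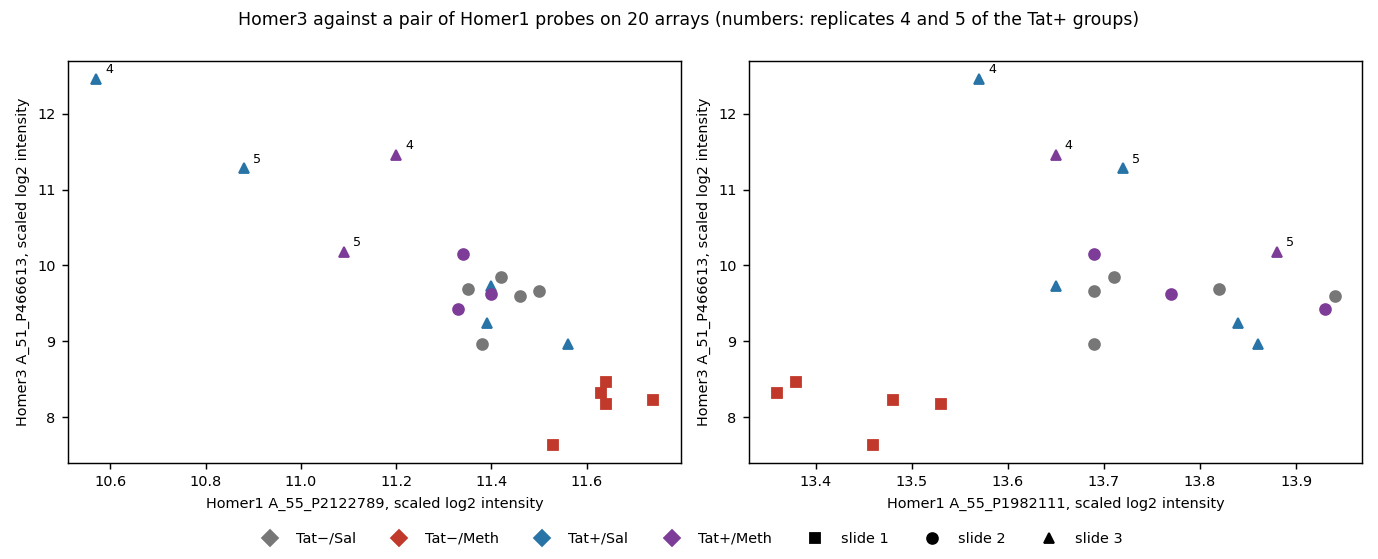
Homer3 scaled log2 intensity (y axis) against 2 Homer1 probes (x axes) on the 20 arrays, with colour for the group and marker shape for the slide. On the left, Tat+/Sal replicates 4 and 5 join low Homer1 A_55_P2122789 (10.57 and 10.88) with high Homer3 (12.46 and 11.28), and on the right the Tat−/Meth arrays are lowest on both axes.

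The genes whose deviations were most like those of 3 central members are given as a description over 20 arrays. For Dlg4 they included Lsm14b and Cntfr (r = 0.89 each). For Shank3 A_51_P115626 they were Gna11 (0.93), Jph3 (0.93) and Ankrd40 (0.91), and for Homer1 A_55_P1982111 Sptbn1 (0.91), Plxdc2 (0.88) and Prkca (0.87). Against 13 activity-induced genes such as Fos, Arc and Egr1, the median r of A_55_P1982111 was 0.35 (−0.36 to 0.62), and those of the other 4 Homer1 probes were 0.17 to 0.37.

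The scaffolds' neighbours were read from 7 lists of 120 genes with 170 tested probes. In Tat−/Meth against Tat−/Sal 64 of these (37.6%) were called, 47 higher and 17 lower, and their median difference was 0.13, against 50.3% (28.1% higher and 22.2% lower) and a median of 0.10 for all probes. Other excitatory postsynaptic density genes had 9 called higher and 4 lower of 46 probes, among them Iqsec1 (0.84 ± 0.20, adjusted p = 0.00189) and Kalrn (0.84 ± 0.16, adjusted p = 0.000274), a guanine nucleotide exchange factor of spines, although other probes of these genes differed by −0.07 and −0.19. Direct partners of Homer and Shank had 2 called higher and 1 lower of 20 probes: Ppp1r9b (spinophilin) and Arhgef7 (beta-PIX) by 0.26 and 0.24, and Itpr1, an inositol trisphosphate receptor bound by Homer, by −0.21. Receptors and channels held by the PSD-95 family had 7 higher and 3 lower of 27, with Lgi1 (a secreted ligand) and Kcna1 (a potassium channel) higher by 0.51 and 0.50 and Adam22, the receptor of Lgi1, at −0.91, although the other probes of Lgi1 and Adam22 gave −0.19 and −0.26.

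Inhibitory postsynaptic scaffolds had 6 higher and 2 lower of 15, with Lhfpl4 (GARLH4, a GABA-A receptor partner) at −2.0 by a probe whose companion gave 0.16. Presynaptic scaffolds had 11 higher and 4 lower of 25, with Pclo at −2.76 and Ppfia4 at −1.45 by probes whose companions reached 0.18 and 0.36, and Erc2 at 0.77, its other probe giving 0.17. The other MAGUK genes had 9 higher and 2 lower of 23, and activity-induced genes 3 higher and 1 lower of 14, Atf3 and Junb being higher by 0.99 and 0.79 while Bdnf fell by 1.21. The Bdnf probe was dim, with means of 7.18 in Tat−/Sal and 5.97 in Tat−/Meth. The latter is under the limit of 6 log2 units, with 4 of 5 arrays well above background, so the size of that fall is uncertain. In Tat+/Meth against Tat−/Meth 71 of the 170 (41.8%) were called, 21 higher and 50 lower, against 53.5% of all probes. In each of the 3 comparisons without Tat−/Meth, 0 of the 170 were called.

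**Figure D5:**
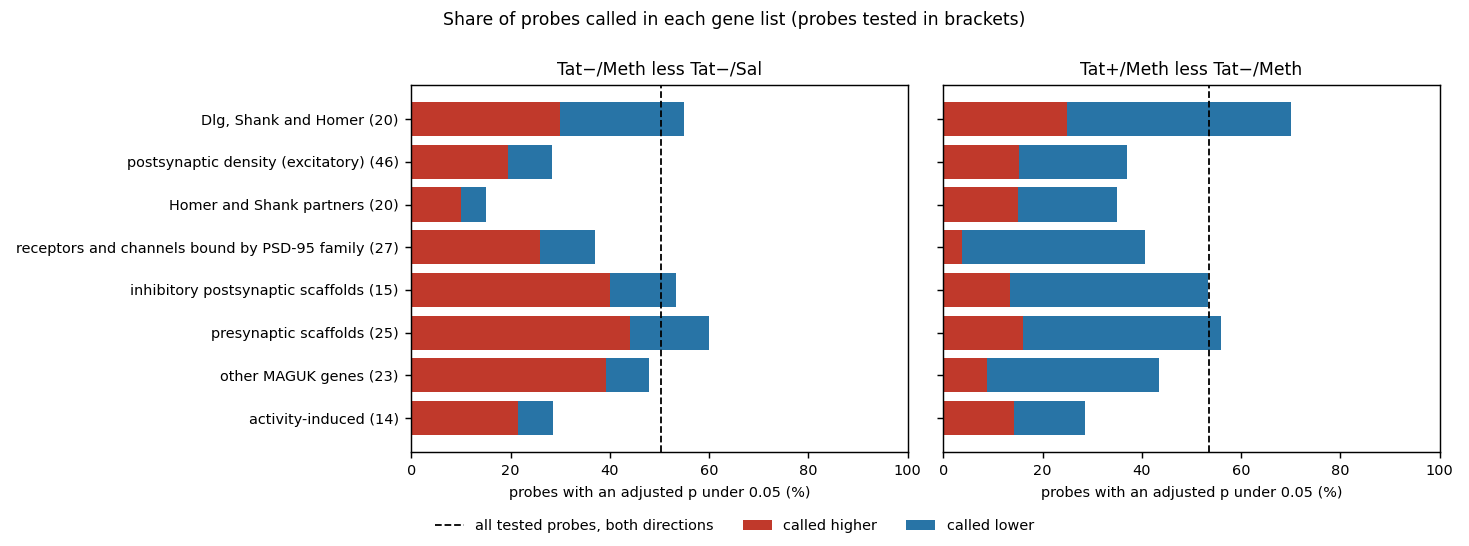
Share of tested probes called (x axis, %) in the Dlg, Shank and Homer set and in 7 other gene lists, red for higher and blue for lower, with a dashed line at the share of all tested probes (50.3% on the left and 53.5% on the right). The scaffold set reached 11 and 14 of 20 probes, and the list of Homer and Shank partners 3 and 7 of 20.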

How the data were processed

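RNA of 20 mice was hybridized to one-colour Agilent arrays, 5 per group. The intensity values used are the processed signals in the scanner files that the authors deposited, background-subtracted by the feature extraction software, whose parameters were not altered here. The file layout is that software's, although the methods name another scanner program and limma normalization. The deposited series matrix served as an alternative. For probes with a single spot, at least 99.8% of its values on each array matched the software's background-subtracted signal plus a constant. That signal is a separate measure from the processed signal used here. The 7831 series matrix values below 1 were set to 1. Of 62976 spots per array, 3671 were controls. Spots marked as outliers were left out (4278 in all), the rest of a probe were averaged as log2, and the arrays were brought to the same 75th percentile. The number of arrays limits the precision.

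Probes measured on 3 or more arrays per group and reaching a mean of 6 log2 units in some group (31516) were tested singly in limma 3.58.1 (R 4.3.3), with 1 mean per group over all 20 arrays, moderated variances and Benjamini–Hochberg adjustment over all tested probes. A probe was called at an adjusted p under 0.05, and 2-fold counts stand beside. Exact permutation tests used SciPy 1.17.1. The fit was tested on simulated data. Symbols were matched by accession to RefSeq (27650 probes), and promoter windows were from RefSeq on GRCm38.p6. The probes' own sequences were not used here. One gene among those most like Dlg4 is not reported here. Values on every array are given for the called brightest probes and all Homer1 probes, and at most 3 genes per other list are named, those with the largest called differences. The members and lists were chosen with earlier results of these data known. Replicates were separate mice per the labels. Alternatives covered scaling, background, filters, probe choice, slide, model, thresholds and single arrays.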

Additional observations from a re-analysis of the deposited data

Results flagged for a closer look

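In 6 of the 80 sets of 5 arrays looked at (20 probes in 4 groups), the highest or lowest array lay far from the other 4. Chance does this in about 1 of 20 such sets. The arrays were Tat+/Meth replicate 4 for Dlg1 A_55_P1957900 (11.47, low) and for Dlg3 (14.62, low), Tat−/Sal replicate 1 for Shank1 A_55_P2062187 (8.11, low), Tat+/Sal replicate 5 for Shank3 A_51_P115626 (14.87, high), and Tat−/Meth replicate 5 for Shank3 A_55_P2089858 (7.99, high) and for Homer2 A_52_P343298 (3.76, low).

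The difference made by Meth was not the same in Tat+ and Tat− mice, by the limma interaction term, for 7 probes. Tat+ less Tat− was 1.75 for Shank1 A_55_P2062187, 0.54 for Shank1 A_55_P1994554, 0.39 for Homer1 A_55_P1982111, −0.67 for Shank3 A_51_P115626, −0.59 for Dlg1 A_55_P1957900, −0.57 for Dlg2 A_52_P89049 and −0.48 for Homer2 A_51_P352303 (0.01 without scaling). Since the Tat−/Meth arrays fill a slide of their own, the slide and this difference cannot be told apart.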

How the results depend on the processing

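With any single array left out there were 10 to 12 called members (of 20) for Meth in Tat− mice, 11 to 15 for Tat in Meth mice and 7 to 9 for the interaction. The shares of all probes in those fits are not given here. Without scaling the counts were 7, 6 and 6 (50.4%, 42.9% and 43.4% of all probes), with median scaling the interaction count was 4 (23.1% of all probes), and with the mean over a gene's probes they were 7, 6 and 3 of 10 genes (49.0%, 53.4% and 35.3% of all features). With the brightest probe of each gene the count for Tat in Meth mice was 9 of 10 (54.4% of all genes). Past 2-fold they were 3, 2 and 1 (11.6%, 12.0% and 12.4%), and past 3-fold at an adjusted p under 0.01 0, 2 and 1 (5.59%, 5.89% and 5.96%). The other 3 comparisons gave 0 in every alternative run. Deviations of same-numbered arrays correlated at r = −0.14 to 0.31, with 8 of 30 pairs above 0.1. With the replicate number as a block the counts stayed at 11, 14 and 7 (52.1%, 55.1% and 38.7% of all probes). With only the 2 groups in the fit, 15 members were called for Meth in Tat− mice and 13 for Tat in Meth mice (49.4% and 50.6% of all probes). By the methods' t-test 14 and 13 were called (47.6% and 48.5%). With slide as a random block the 3 counts were 12, 15 and 9 (58.1%, 58.5% and 46.3%). A fixed slide block could not be fitted for Meth in Tat− mice, Tat in Meth mice or the interaction, and the fits with only 2 groups and the methods' t-test were not run for the interaction. Without scaling 10, 6 and 10 of the 20 members had the opposite sign in these comparisons. Among them, those called with or without scaling were Dlg2 A_55_P2072238 (−0.31 for Meth in Tat− mice, 0.12 for Tat in Meth mice, 0.41 for the interaction), Dlg3 (−0.205 and 0.018) and Homer2 A_51_P352303 (−0.042, and 0.01 for the interaction). Signs also turned with the mean over probes for Homer1 (0.055 and −0.17) and Homer2 (−0.35, 0.15 and 0.17), and with normexp for Homer2 A_52_P343298 (−0.02). No scaling moved 97.8% of all calls for Meth in Tat− mice to lower, against 44.2%. The causes were not tested, except that averaging joins probes that differ. Signal over background limits Homer2 A_52_P343298.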
